A study of Mus musculus with 15 samples.

Results

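The 36 genes described here carry the cell division cycle of the mouse, from the decision to enter S phase to the separation of the chromosomes. They were taken by symbol from a list, all 36 were present in the gene tables of all 15 libraries, and they are 36 of the 31017 genes counted. The list holds 13 genes of DNA replication (Mcm2, Mcm3, Mcm4, Mcm5, Mcm6, Mcm7, Gins2, Cdc6, Pcna, Lig1, Rrm1, Rrm2 and Tyms) and 5 genes that control entry into S phase, here called G1/S control (Ccnd1, E2f1, Ccne1, Ccne2 and Cdk2). The other 18 are genes of mitosis (Mki67, Top2a, Cdk1, Ccna2, Ccnb1, Ccnb2, Plk1, Aurka, Aurkb, Bub1, Bub1b, Cenpe, Cenpf, Kif11, Kif20a, Tpx2, Birc5 and Cdc20).

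Dividing cells license their replication origins in G1 by loading the MCM helicase, fire them in S phase, and then build a spindle and segregate the copies in mitosis. E2F transcription factors switch on many replication genes at the G1/S border, whereas many mitosis genes are switched on later through promoter elements named CHR and CCAAT. Cultured fibroblasts divide, while most cells of the mature cortex have left the cycle. Dnmt1, the protein studied here, copies DNA methylation onto new strands at replication forks and binds Pcna there.

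The study examined RNA immunoprecipitation (RIP) in mice with a dominant mutation of Dnmt1, with no allele named in the labels. Fibroblast lines were grown from the tails of wild-type (WT), heterozygous (Het) and homozygous (Hom) littermates of the same sex, per the labels' protocols. From formaldehyde-fixed fibroblasts an antibody to Dnmt1 gave 6 libraries, a pair per genotype. From oligo-dT selected mRNA an antibody to 5-methylcytosine (m5C) gave 4 fibroblast libraries, 2 WT, 1 Het and 1 Hom, and 3 cortex libraries, 1 of each genotype. The labels name no treatment. Each tissue also had 1 library titled input, whose antibody label names IgG and which carries no genotype. No genotype had its own input, so a change in the amount of an RNA and a change in its precipitation cannot be told apart. The labels do not say whether replicate libraries came from separate lines or animals, so the p-values reflect only how these libraries vary, which may be technical variation.

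Libraries held 217173 to 4913482 gene counts, and the 36 genes together held 217 to 1337 counts in the Dnmt1 RIP libraries, 1044 to 3675 in the fibroblast m5C libraries, 288 to 503 in the cortex m5C libraries, 992 in the cortex input and 35 in the fibroblast input. Levels are given as CPM, counts scaled to a common library size, over the gene counts without 4 transcripts that took unequal shares (Lars2, Gm42418, Gm26917 and Gm10800). A count of 0 allows up to 3 counts, which is 2.52 to 15.5 CPM in a Dnmt1 RIP library, 1.30 to 4.37 CPM in an m5C library of either tissue and 31.5 CPM in the fibroblast input. This limit covers counting error only. The m5C WT library 1 of fibroblasts held at least as many counts as the Hom library in 31017 of 31017 genes, including all 36 cell cycle genes, where WT library 2 did so in 25740 genes. Some results that rest on this pair are therefore also given without both. The fibroblast m5C Hom contrast and the Hom interaction need the Hom library and cannot be. The Dnmt1 RIP libraries went against their fibroblast label. Their summed level of 10 fibroblast marker genes was 595 to 22099 CPM, against 24740 to 30889 CPM in the fibroblast m5C libraries, and their 8 neuron markers summed to 2522 to 4027 CPM, against 398 to 851 CPM. Of the markers tested between both antibodies, 9 of 9 fibroblast and 8 of 8 macrophage markers were lower, and 8 of 8 neuron and 4 of 4 oligodendrocyte markers higher, in Dnmt1 RIP. The fibroblast input also went against its label, with fibroblast markers at 2113 CPM and neuron markers at 2050 CPM.

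Promoters of 28 of the 36 genes were found in the RefSeq promoter table of build GRCm38.p6, which holds 250 bases before to 50 bases after the first listed start. The unmatched genes were Mcm4, Gins2, Ccnd1, Ccne2, Ccna2, Aurkb, Kif20a and Tpx2. The 250 upstream bases of 5 genes are shown because these genes span the range of the tissue difference described below. They lie at chr1:128359706-128359955 (Mcm6, minus strand), chr8:75109259-75109508 (Mcm5, plus strand), chr10:69352913-69353162 (Cdk1, minus strand), chr4:118437344-118437593 (Cdc20, minus strand) and chr7:38107491-38107740 (Ccne1, minus strand). Capitals mark matches, on either strand, to E2F (TTTCCCGC, TTTCGCGC, TTTGCCGC or TTTGGCGC), CHR (TTTGAA) and CCAAT.
Mcm6: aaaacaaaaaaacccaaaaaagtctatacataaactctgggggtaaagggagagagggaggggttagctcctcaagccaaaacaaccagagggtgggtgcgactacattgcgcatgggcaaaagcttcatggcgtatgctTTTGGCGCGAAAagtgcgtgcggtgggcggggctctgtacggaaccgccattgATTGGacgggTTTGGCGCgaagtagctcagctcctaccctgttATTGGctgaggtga
Mcm5: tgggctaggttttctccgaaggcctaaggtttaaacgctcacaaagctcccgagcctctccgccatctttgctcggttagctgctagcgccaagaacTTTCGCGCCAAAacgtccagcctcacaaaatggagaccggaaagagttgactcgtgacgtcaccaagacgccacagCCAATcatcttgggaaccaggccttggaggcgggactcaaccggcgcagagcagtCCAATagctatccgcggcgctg
Cdk1: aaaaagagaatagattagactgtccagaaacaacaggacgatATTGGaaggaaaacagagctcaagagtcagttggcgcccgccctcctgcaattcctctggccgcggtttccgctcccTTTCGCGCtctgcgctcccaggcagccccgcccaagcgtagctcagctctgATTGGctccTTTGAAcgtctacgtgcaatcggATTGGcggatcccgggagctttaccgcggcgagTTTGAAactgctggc
Cdc20: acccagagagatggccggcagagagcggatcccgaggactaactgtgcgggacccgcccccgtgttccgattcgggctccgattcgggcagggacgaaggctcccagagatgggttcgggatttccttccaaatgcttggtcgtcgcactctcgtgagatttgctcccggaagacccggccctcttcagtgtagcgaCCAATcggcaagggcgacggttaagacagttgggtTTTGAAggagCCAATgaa
Ccne1: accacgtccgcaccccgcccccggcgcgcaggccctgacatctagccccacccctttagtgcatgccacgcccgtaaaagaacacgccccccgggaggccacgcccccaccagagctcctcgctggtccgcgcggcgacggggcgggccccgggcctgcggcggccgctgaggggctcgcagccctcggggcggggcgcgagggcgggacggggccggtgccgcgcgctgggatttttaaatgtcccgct

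The 2 kinds of element were unevenly spread over the roles. The CHR letters were in 10 of 14 mitosis promoters (71.4%), in 1 of 11 replication promoters (9.09%, Mcm2) and in 18.1% of all 27025 promoters of the same length. The E2F letters were in 5 of 11 replication promoters (45.5%), in 1 of 14 mitosis promoters (7.14%, Cdk1) and in 2.32% of all promoters. CCAAT was in 13 of 14 mitosis promoters (92.9%), 8 of 11 replication promoters (72.7%) and 37.9% of all. Mcm6, a helicase subunit, had E2F letters 110, 106 and 47 bases before the start, the first pair overlapping on opposite strands. Mcm5, another subunit, had an overlapping pair 153 and 149 bases before it. Cdk1, the kinase that drives mitosis, had CHR letters 71 and 15 bases and E2F letters 131 bases before its start. Cdc20, the activator of the anaphase-promoting complex, had CHR letters 18 bases before it, and Ccne1, which encodes cyclin E1, had none of the 3 elements in the bases shown. A match describes letters in this window and is not a measured site.

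Mitosis genes stood lower than replication genes per kb of exon in m5C RIP of both tissues, and the gap was wider in cortex. Replication genes summed to 10.4 to 11.3 CPM per kb in fibroblast m5C and 1.66 to 2.09 in cortex m5C, and mitosis genes to 6.06 to 7.97 and 0.381 to 0.444. In Dnmt1 RIP they were at 5.73 to 7.81 and 3.71 to 6.69 CPM per kb. Without length, and over lists of unequal size, the summed level of the 13 replication genes was 439 ± 52.8 CPM in Dnmt1 RIP (SD, n = 6), 679 ± 24.6 CPM in fibroblast m5C (SD, n = 4) and 121 ± 14.4 CPM in cortex m5C (SD, n = 3). For the 18 mitosis genes it was 511 ± 105.0 CPM, 675 ± 87.7 CPM and 39.7 ± 3.02 CPM in the same order. Mitosis genes took 49.5% to 56.5% of the joint counts in Dnmt1 RIP and 46.6% to 53.2% in fibroblast m5C. In cortex m5C they took 21.6% in WT (95% exact binomial interval 16.2% to 27.9%), 27.6% in Het (21.6% to 34.4%) and 25.3% in Hom (21.01% to 29.9%). The cortex input, a single library whose antibody label names IgG, gave 24.9% (21.8% to 28.2%). Whether precipitation has a part in the mitosis share was not tested. The fibroblast input gave 67.6%, with an interval of 49.5% to 82.6% from 23 mitosis and 11 replication counts. No test was made of these sums. Fewer dividing cells and less RNA per cell cannot be told apart in such bulk libraries.

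**Figure D1:**
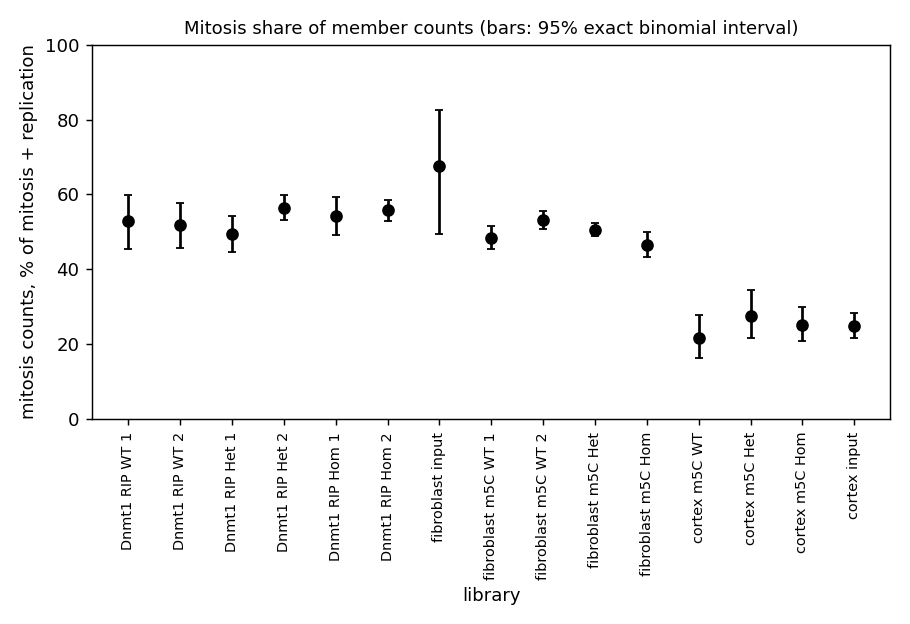
Share of the joint replication and mitosis counts held by the mitosis genes (y axis, %) in each library (x axis), with 95% exact binomial intervals as bars. The 4 cortex libraries lie between 21.6% and 27.6%, below all Dnmt1 RIP and fibroblast m5C libraries, which lie between 46.6% and 56.5%.

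The mean log2(CPM + 1) of replication genes minus that of mitosis genes gave the same order. It was 0.06 to 0.51 over the 6 Dnmt1 RIP libraries, 0.20 to 0.66 over the 4 fibroblast m5C libraries and 1.15 to 1.54 over the 3 cortex m5C libraries, with 1.40 in the cortex input. The cortex range lay above the fibroblast m5C range without overlap, whereas Dnmt1 RIP and fibroblast m5C overlapped. The 5 G1/S control genes summed to 104 to 184 CPM in Dnmt1 RIP, 265 to 323 CPM in fibroblast m5C and 49.98 to 65.6 CPM in cortex m5C.

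Levels per kb of exon allow genes to be compared. In fibroblast m5C the highest were Pcna at 54.0 CPM per kb (pooled over libraries), the clamp that holds polymerases on DNA, Ccnd1 (cyclin D1) at 34.8, and Rrm2, the small subunit of ribonucleotide reductase, at 23.9. In cortex m5C Pcna (17.9 CPM per kb) and Ccnd1 (5.20) again led, followed by E2f1 (4.14) and Ccne1 (4.06), so 3 of the 4 highest were G1/S control genes. The lowest there were Cdk1, Birc5 and Aurkb, all of mitosis. In Dnmt1 RIP Cdc20 (19.3 CPM per kb) and Pcna (16.0) were the highest, followed by the DNA ligase gene Lig1 (13.4) and Mcm7 (11.1). With each Dnmt1 RIP library weighted equally Pcna stood at 18.3 and Cdc20 at 17.3 CPM per kb, so their order was not fixed. Levels across the 36 genes rose with exon length in Dnmt1 RIP more than in m5C, with a Spearman rho per library of 0.11 to 0.49, against 0.04 to 0.17 in fibroblast m5C and −0.09 to 0.06 in cortex m5C (n = 36 genes that share each library).

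As a reference for low-level signal, the 1092 olfactory receptor genes, known mainly from the sensory neurons of the nose, were summed per kb. They were at 1.28 to 2.55 CPM per kb in Dnmt1 RIP, 0.36 to 0.55 in fibroblast m5C and 0.043 to 0.179 in cortex m5C. In the same order the 36 genes were at 5.03 to 7.13, 8.48 to 9.86 and 1.17 to 1.30 CPM per kb, so the ratios also carry the olfactory level. The 36 genes stood 2.50 to 5.55 times above the olfactory receptor genes in Dnmt1 RIP, 15.7 to 27.3 times in fibroblast m5C and 7.30 to 28.5 times in cortex m5C. Replication genes stood 2.86 to 6.08 times and mitosis genes 2.24 to 5.21 times above them in Dnmt1 RIP. In the fibroblast input the ratios were 4.89 for the 36 genes, 4.36 for replication and 6.01 for mitosis genes, from few counts. In cortex m5C the replication genes stood 11.7 to 46.7 times above it and the mitosis genes 2.13 to 10.4 times.

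**Figure D2:**
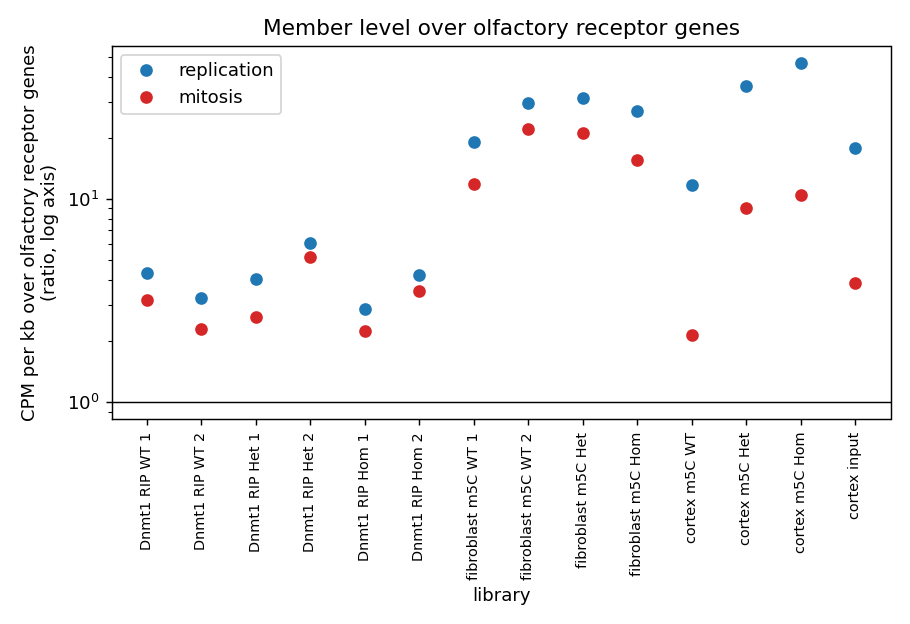
Level of replication and mitosis genes per kb divided by that of 1092 olfactory receptor genes (y axis, ratio on a log axis) in each library (x axis). Replication genes lie between 2.86 and 6.08 in the 6 Dnmt1 RIP libraries and between 19.0 and 31.3 in the 4 fibroblast m5C libraries.

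**Figure D3:**
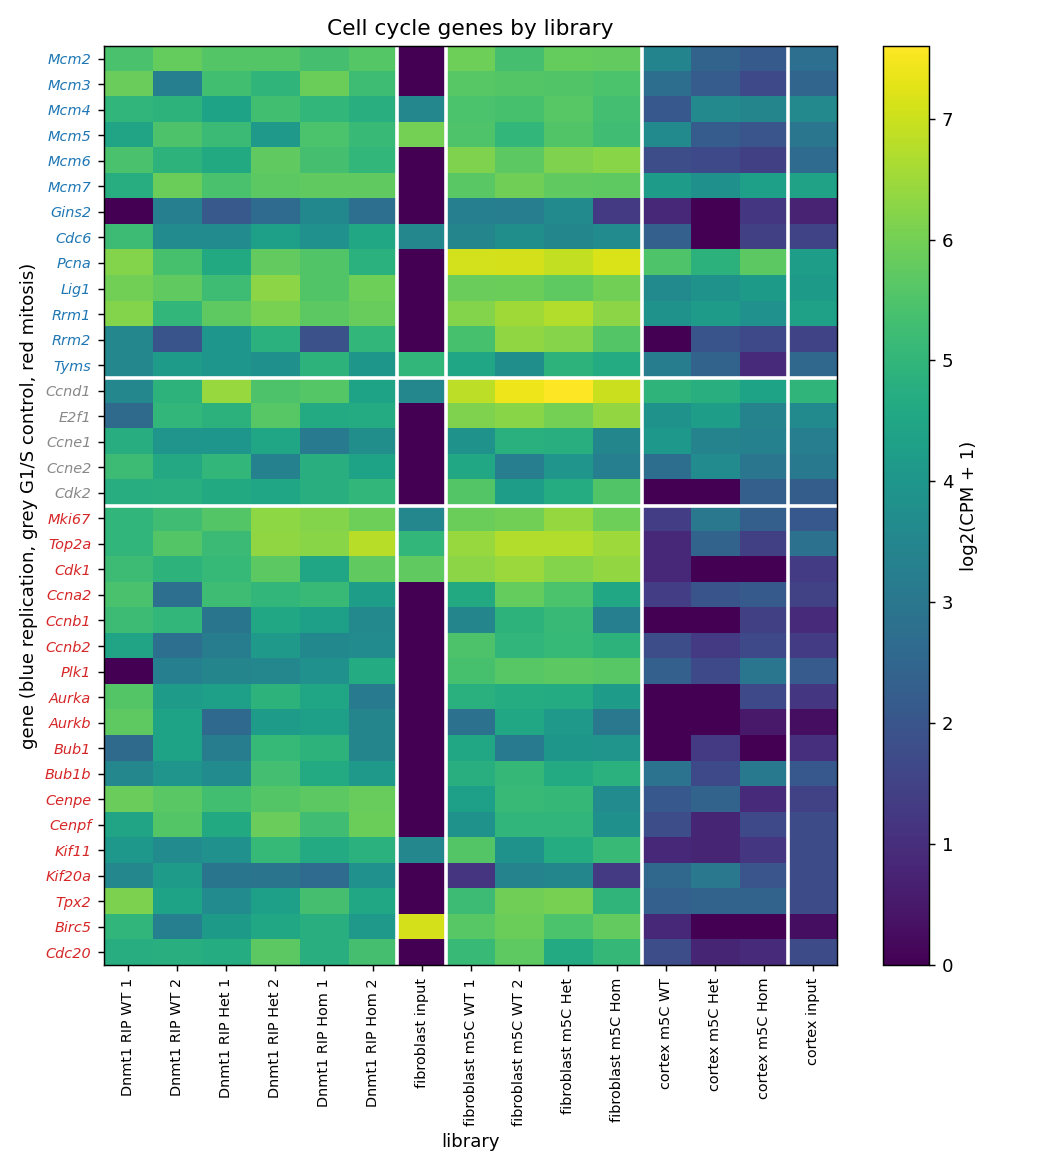
Level of each of the 36 genes as log2(CPM + 1) (colour) in each of the 15 libraries (columns), with genes (rows) ordered by role. The cortex columns are dark for most mitosis genes, where Cdk1 reached at most 1.53 CPM, and brighter for Pcna, at 17.9 to 50.8 CPM.

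The comparison of fibroblast with cortex m5C libraries asked how the tissues differ, with genotype as a covariate. Of the 36 genes, 33 were higher in fibroblasts and 0 lower (edgeR, adjusted p under 0.05), where 33% of all 14193 genes tested were higher and 30.9% lower. All 13 replication genes, 3 of 5 G1/S control genes and 17 of 18 mitosis genes were among them. The median log2 difference was 2.67 for replication, 2.52 for G1/S control and 4.36 for mitosis genes, against 0.06 for all genes. In 33 of 36 genes every fibroblast library lay above every cortex library, as in 28.9% of all genes.

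Mcm6 (build mm10, chr1:128331590-128359664) had 68.5 and 50.7 CPM in both WT libraries, 68.4 CPM in Het and 74.4 CPM in Hom fibroblasts, and 2.44, 2.19 and 1.74 CPM in WT, Het and Hom cortex. Its log2 difference was 5.09 ± 0.34 (SE, edgeR adjusted p = 1.16e-08), the largest standardised change among the replication genes. Pcna (chr2:132249162-132253314), the highest of them per kb, had 135 and 138 CPM in both WT libraries, 118 CPM in Het and 144 CPM in Hom fibroblasts, and 44.7, 28.4 and 50.8 CPM in the cortex libraries. The tissues did not overlap, yet the difference of 1.82 ± 0.20 (edgeR adjusted p = 1.91e-06) was less than that of Mcm6. Rrm1, the large subunit of ribonucleotide reductase, had 72.2, 90.2, 105.0 and 77.3 CPM in WT 1, WT 2, Het and Hom fibroblasts and 13.8, 17.48 and 13.47 CPM in cortex, a difference of 2.67 ± 0.24 (edgeR adjusted p = 1.92e-07). Its partner Rrm2 had 41.1, 80.7, 74.1 and 46.7 CPM in fibroblasts and 0, 2.91 and 2.17 CPM in cortex. Both subunits were without overlap between the tissues, and Rrm2 had the larger difference (5.11 ± 0.49). Among the helicase subunits the difference ran from 1.82 ± 0.26 for Mcm7 to that of Mcm6, with Mcm4 at 2.57, Mcm5 at 2.89, Mcm2 at 3.31 and Mcm3 at 3.69.

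Several mitosis genes were near 0 in cortex. Cdk1 (chr10:69335146-69352938) had 77.2, 86.7, 72.7 and 81.7 CPM in WT 1, WT 2, Het and Hom fibroblasts, and 0.813, 0 and 0 CPM in WT, Het and Hom cortex. With 370 counts against 1, its pooled ratio was 384 (95% counting interval 68.4 to 1.52e+04, edgeR adjusted p = 6.15e-09). Birc5 (chr11:117849251-117855743), which encodes survivin of the chromosomal passenger complex, had 48.6, 58.4, 42.4 and 54.0 CPM in fibroblasts and 0.813, 0 and 0 CPM in cortex, a pooled ratio of 240.5 (42.8 to 9541) from 232 counts against 1. Top2a (chr11:98992943-99024189), the topoisomerase that untangles chromosomes, had 84.7, 106, 105.0 and 89.0 CPM in fibroblasts and 0.813, 4.37 and 1.74 CPM in cortex, a difference of 5.48 ± 0.35 (edgeR adjusted p = 8.20e-09). All 3 were without overlap between the tissues. Mki67, the proliferation marker Ki-67, had 58.5, 62.7, 83.8 and 59.8 CPM in fibroblasts and 1.63, 7.28 and 3.91 CPM in cortex (4.11 ± 0.32, edgeR adjusted p = 5.01e-08). Aurkb, the kinase of the passenger complex, gave 70 counts against 1, a ratio of 72.6 (12.6 to 2907), and the checkpoint kinase gene Bub1 gave 69 against 2, a ratio of 35.8 (9.53 to 301).

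The other replication genes were the ligase gene Lig1 (2.16 ± 0.25), the thymidylate synthase gene Tyms (2.55 ± 0.55), the licensing factor gene Cdc6 (2.65 ± 0.75) and Gins2, a subunit that joins the helicase (3.01 ± 1.05). Gins2 had few counts, at 8.72, 8.59, 11.1 and 1.46 CPM in WT 1, WT 2, Het and Hom fibroblasts and 0.813, 0 and 1.30 CPM in cortex, and passed with an edgeR adjusted p of 0.021. Of the 36 genes 32 passed in all 15 settings tried, and Gins2, Ccne1, Ccne2 and Kif20a did not.

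The other mitosis genes differed in the same direction. The cyclin genes Ccnb1, Ccnb2 and Ccna2 differed by 4.60 ± 0.83, 4.06 ± 0.41 and 3.68 ± 0.48, and the kinases Plk1 and Aurka by 3.50 ± 0.36 and 4.61 ± 0.68. Kif11, the motor that pushes spindle poles apart, differed by 4.88 ± 0.59, and its fibroblast libraries stood at 46.1, 13.7, 25.0 and 33.5 CPM against 0.813, 0.728 and 1.30 CPM. Cdc20 differed by 4.72 ± 0.46, and the spindle factor Tpx2 by 3.53 ± 0.37. The kinetochore genes Cenpe and Cenpf differed by 3.21 ± 0.47 and 3.59 ± 0.58. The checkpoint gene Bub1b (2.46 ± 0.40) had the smallest value of the mitosis genes that passed, and was at 6.502, 2.19 and 7.39 CPM in cortex.

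Among G1/S control genes, Ccnd1 (chr7:144929931-144939925) had 113, 169, 193 and 127 CPM in WT 1, WT 2, Het and Hom fibroblasts and 30.1, 26.2 and 20.4 CPM in cortex (2.68 ± 0.24, edgeR adjusted p = 2.06e-07). E2f1 had 69.8, 75.6, 63.6 and 81.7 CPM against 13.8, 18.2 and 9.56 CPM (2.52 ± 0.27, edgeR adjusted p = 1.21e-06). Cdk2, the partner kinase of the E-type cyclins, had 46.1, 18.0, 25.0 and 45.2 CPM against 0, 0 and 3.91 CPM (4.62 ± 0.62). Cdk2 had no count in 2 of the 3 cortex libraries, and both E-type cyclin genes had counts in all 3.

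The 3 genes that did not pass were the 2 E-type cyclins and the kinesin gene Kif20a. Ccne1 had 13.7, 27.5, 26.5 and 10.2 CPM in WT 1, WT 2, Het and Hom fibroblasts and 15.4, 9.47 and 9.13 CPM in cortex, a difference of 0.85 ± 0.40 (edgeR adjusted p = 0.0804). Ccne2 (cyclin E2) had 22.4, 8.59, 14.4 and 8.75 CPM against 5.69, 11.7 and 6.95 CPM (0.81 ± 0.48, edgeR adjusted p = 0.156). Kif20a, a motor of the central spindle, had 1.25, 9.45, 10.1 and 1.46 CPM against 4.88, 7.28 and 3.04 CPM (0.25 ± 0.75, edgeR adjusted p = 0.777). The tissues overlapped in all 3, and in Ccne1 and Kif20a the m5C WT library 1 and the Hom library were the low fibroblast libraries. Without WT library 1, Ccne1 differed by 1.04 ± 0.42 (edgeR adjusted p = 0.0243), and without both libraries by 1.32 ± 0.47 (edgeR adjusted p = 0.0105), which counts 34 of 36 genes as higher.

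**Figure D4:**
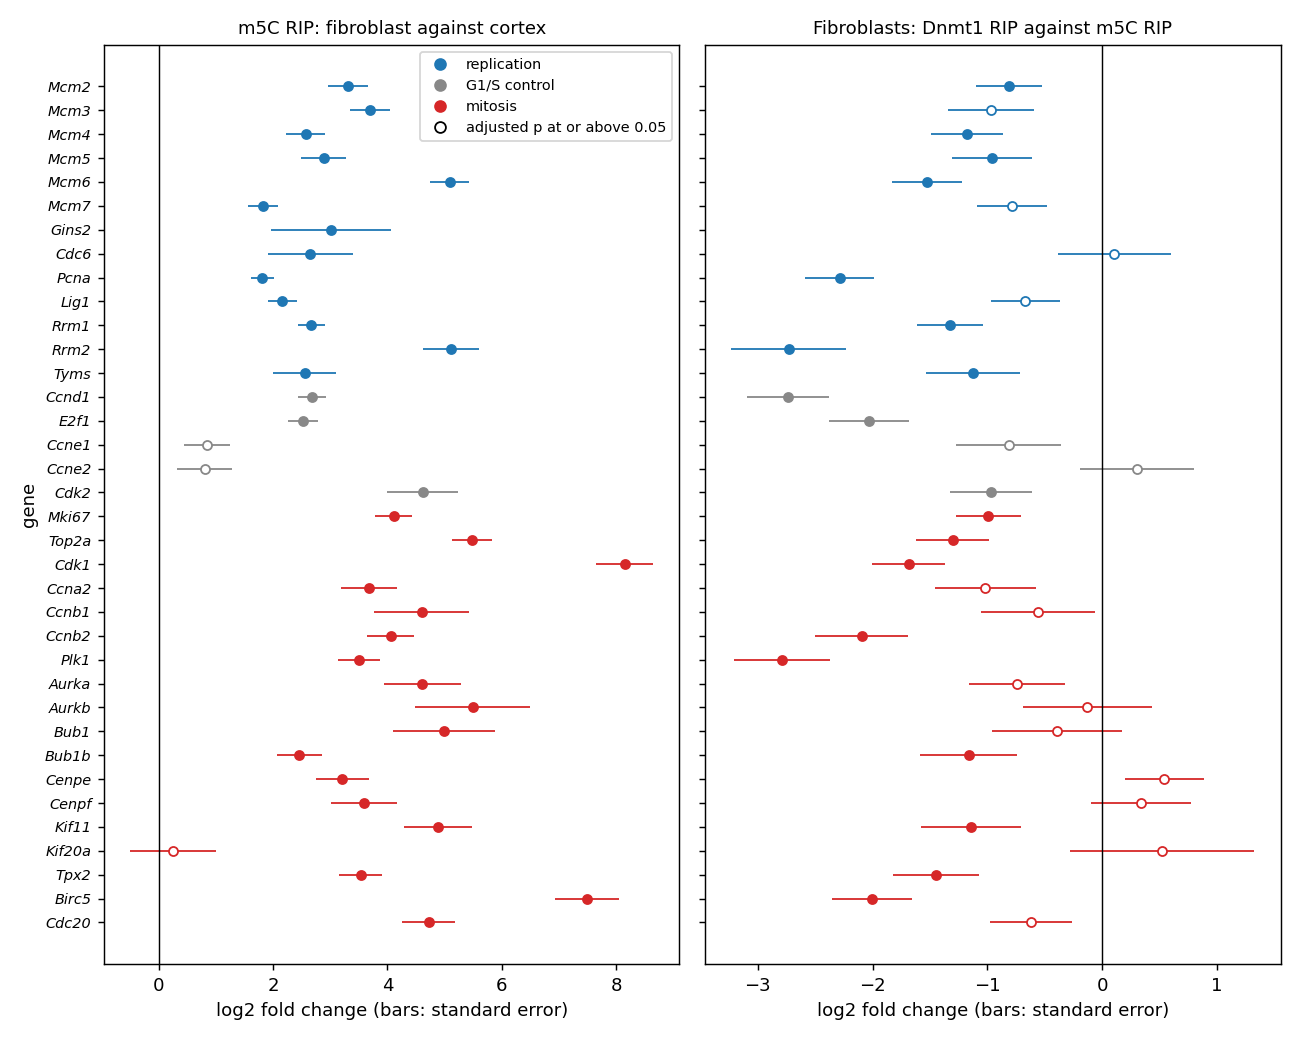
Log2 fold change of each gene (rows, coloured by role) with its standard error, for fibroblast against cortex m5C RIP and for Dnmt1 RIP against m5C RIP in fibroblasts (x axes), with open points where the adjusted p is at or above 0.05. All 33 filled points of the tissue comparison lie above 0, and all 20 of the antibody comparison lie below 0.

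The wider lists of cycle genes were also mostly higher in fibroblasts. Of 46 other mitosis genes tested, 44 were higher in fibroblasts and 1 lower, with a median of 3.20. Of all genes tested 33% were higher and 30.9% lower. The higher mitosis genes included the condensin subunit Smc4 (2.94 ± 0.26), the centromeric histone Cenpa (3.77 ± 0.34), Cks1b, which binds Cdk1 (6.05 ± 0.41), and the ubiquitin-conjugating enzyme Ube2c (5.59 ± 0.59). The exception was the condensin subunit Ncapd2 (−0.76 ± 0.21). Of 36 other replication genes, 22 were higher and 2 lower, beside the same shares of all genes, with a median of 1.60. Among the higher were the licensing factor Cdt1 (5.49 ± 0.51), its inhibitor Gmnn (3.40 ± 0.42), the clamp loader subunit Rfc3 (3.77 ± 0.54) and the polymerase subunit Pold1 (1.94 ± 0.27). The lower were the origin recognition subunits Orc3 (−1.05 ± 0.31) and Orc4 (−0.80 ± 0.24).

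Of 13 other G1 regulators, 10 were higher in fibroblasts, where 33% of all genes tested were. Among them were the cyclin D partners Cdk4 (2.98 ± 0.20) and Cdk6 (3.24 ± 0.26) and the cyclin gene Ccnd2 (2.05 ± 0.23). Of 10 inhibitors and pocket proteins, the brakes of the cycle, 5 were higher and 1 lower, beside the same 33% and 30.9% of all genes. The higher ones included Cdkn1a (3.49 ± 0.23), Cdkn2b (4.37 ± 0.62) and Cdkn2c (5.57 ± 0.44), and the lower one was Rbl2 (−0.78 ± 0.26). The fibroblast libraries also carried macrophage markers, whose 8 genes summed to 2938 to 5423 CPM against 132 to 142 CPM in cortex. Their part in the tissue difference was not tested. The tables of the fibroblast WT libraries hold genes alone, and those of the other m5C libraries have extra lines for unassigned reads. In the 5 m5C libraries whose tables share 1 layout, 32 of the 36 genes were higher, with medians of 3.62 for replication and 4.12 for mitosis, where 29.2% of all genes were higher.

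Within the libraries labelled fibroblast the antibodies were compared over the 3 genotypes. Dnmt1 RIP started from formaldehyde-fixed cells and m5C RIP from oligo-dT selected mRNA, so antibody and preparation cannot be told apart. Of 35 genes tested, 20 were lower in Dnmt1 RIP than in m5C RIP and 0 higher (edgeR, adjusted p under 0.05), where 21.4% of all 17124 genes tested were lower and 16.2% higher. They were 8 of 12 replication, 3 of 5 G1/S control and 9 of 18 mitosis genes. Medians were −1.05 for replication, −0.97 for G1/S control and −1.01 for mitosis, against 0.24 for all genes. All Dnmt1 RIP libraries lay below all m5C libraries in 9 genes, as in 6.4% of all genes, and above them in 1, Cenpe, as in 17.4% of all. Against cortex m5C, 27 of the 36 genes had every Dnmt1 RIP library above every cortex library, as in 15.3% of all genes: 10 of replication, 1 of G1/S control and 16 of mitosis.

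Ccnd1 had 10.4, 36.2 and 85.2 CPM as the lowest, median and highest Dnmt1 RIP library, all below the m5C libraries given above. Its difference was −2.74 ± 0.35 (edgeR adjusted p = 0.000114). Pcna had 23.4, 42.8 and 72.5 CPM in Dnmt1 RIP, again all below its m5C libraries (−2.29 ± 0.30, edgeR adjusted p = 0.00012). Neither gene overlapped between the antibodies. E2f1, the transcription factor of S phase entry, had 5.18, 26.4 and 48.8 CPM in Dnmt1 RIP against 63.6 to 81.7 CPM in m5C (−2.03 ± 0.35, edgeR adjusted p = 0.000659). Rrm2 had 2.66, 12.7 and 31.9 CPM in Dnmt1 RIP, below its lowest m5C library of 41.1 CPM (−2.73 ± 0.50, edgeR adjusted p = 0.000958). Its Dnmt1 RIP libraries differed widely among themselves.

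Plk1, the polo kinase of mitosis, had 0, 10.3 and 24.4 CPM in Dnmt1 RIP and 41.1, 48.1, 50.1 and 48.1 CPM in m5C (−2.79 ± 0.42, edgeR adjusted p = 0.000256). Birc5 had 8.68, 19.6 and 31.1 CPM, below its m5C libraries (−2.00 ± 0.35, edgeR adjusted p = 0.000727). Cdk1 had 21.3, 34.8 and 52.9 CPM in Dnmt1 RIP (−1.68 ± 0.32, edgeR adjusted p = 0.00119). These mitosis genes, too, were without overlap between the antibodies. Mcm6 had 23.4, 35.9 and 52.7 CPM and Top2a 31.1, 60.4 and 110.1 CPM in Dnmt1 RIP, with differences of −1.53 ± 0.31 and −1.30 ± 0.32 that passed the test although the libraries of both antibodies overlapped. Also lower were Ccnb2 (−2.09 ± 0.40), Rrm1 (−1.33 ± 0.28) and Tpx2 (−1.45 ± 0.37).

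Values above 0 were found for 5 genes, none of which passed. Cenpe, a kinetochore motor, had 38.4, 49.8 and 56.9 CPM in Dnmt1 RIP and 18.7, 34.3, 32.7 and 11.7 CPM in m5C (0.54 ± 0.35, edgeR adjusted p = 0.223). Cenpf, another kinetochore protein, had 20.7, 41.8 and 58.0 CPM against 13.7, 30.9, 31.3 and 13.1 CPM (0.34 ± 0.43, edgeR adjusted p = 0.549). Both had their lowest m5C levels in WT library 1 and the Hom library. Over WT and Het alone they stood at 0.026 ± 0.38 and −0.13 ± 0.49, and without this pair as well at −0.18 ± 0.40 and −0.38 ± 0.52. These fitted values are relative to the TMM scaling, and the 4 Dnmt1 RIP libraries of WT and Het, at 38.4 to 56.9 CPM, still lay above the 2 remaining m5C libraries in Cenpe. Kif20a was at 0.52 ± 0.80, Ccne2 at 0.30 ± 0.50 and the licensing factor gene Cdc6 at 0.10 ± 0.49.

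The count of lower genes moved with the scaling. It was 14 with RLE size factors, 12 with DESeq2 and 8 with total counts alone, as the median of all genes rose from 0.24 to 0.36, 0.36 and 0.57. It was 14 over WT and Het alone (16.5% of all genes lower), 13 when the m5C pair named above was also left out (11.6%), and 8 within the tables of 1 layout, WT against WT, where 10.2% of all genes were lower. Across all 18 settings, 7 genes passed each time: Pcna, Rrm2, Ccnd1, E2f1, Cdk1, Plk1 and Birc5. The share of all genes that passed each time is not given here. Nor is the share lower with RLE size factors, DESeq2 or total counts alone, so those counts cannot be set against all genes. The fibroblast, macrophage, neuron and oligodendrocyte markers moved between the same libraries as given above, and their part in these differences was not tested.

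Other genes of the pathway are set beside the 21.4% of all genes that were lower. Lower in Dnmt1 RIP were 7 of 47 other mitosis genes, led by Cks1b (−2.29 ± 0.32), and 10 of 37 other replication genes, including the dUTP pyrophosphatase gene Dut (−1.50 ± 0.36) and the chromatin assembly subunit Chaf1a (−1.63 ± 0.40). Of the other replication genes 1 was higher, the origin recognition subunit Orc1 (2.34 ± 0.65, edgeR adjusted p = 0.0121), where 16.2% of all genes were. Lower also were 5 of 13 other G1 regulators, such as Cdk4 (−1.84 ± 0.30) and E2f4 (−1.52 ± 0.29), and 5 of 10 inhibitors and pocket proteins, such as Cdkn1a (−2.69 ± 0.32). The median was −0.30 for the other mitosis and −0.45 for the other replication genes.

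The input libraries give the level without either antibody of interest. In cortex the pooled m5C level over the input was 1.04 for replication genes (95% counting interval 0.927 to 1.17), 0.947 for G1/S control (0.80 to 1.12) and 1.04 for mitosis (0.848 to 1.29). Pcna held 211 of the 597 replication counts in m5C, and was set apart because it held the most. The other 12 replication genes gave 0.797 (0.694 to 0.915), against 2.40 (1.85 to 3.14) for Pcna alone. As this split was chosen from the same counts, neither value tests for a difference from 1. By gene, 0 of 36 passed the test of m5C RIP over input across both tissues (edgeR), where 0.683% of all genes did and 1 of the 36 had an unadjusted p under 0.05. That gene was Pcna, at 1.76 ± 0.55 (edgeR adjusted p = 0.286), which DESeq2 gave as 1.89 ± 0.55 with an adjusted p of 0.0288. In cortex Pcna was at 44.7, 28.4 and 50.8 CPM in the WT, Het and Hom m5C libraries against 17.9 CPM in the input. All 3 lay above it, by log2 ratios of 1.29, 0.65 and 1.48, with no replicate of the input. Without the cortex input 18 genes passed, all higher, where 33% of all 14286 genes were higher, and the comparison then rested on the fibroblast input, in which most of these genes had no count.

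In the fibroblast input 26 of the 36 genes had 0 counts. Its cell type markers went against its label, as given above, which limits every ratio over it. Birc5 alone had 13 counts (136.7 CPM), Mcm5 had 6, Cdk1 5, Tyms and Top2a 3 each, and 5 genes had 1 each. Dnmt1 RIP was tested against this single library, and 1 of 35 genes passed: Birc5 was lower, with a difference of −2.96 ± 0.70 (edgeR adjusted p = 0.0388), where 1.68% of all genes were lower and 3.31% higher. Its level of 8.68 to 31.1 CPM in Dnmt1 RIP lay below the 136.7 CPM of the input. Birc5 did not pass without Dnmt1 RIP WT library 1 (edgeR adjusted p = 0.0607), Hom library 1 (0.0647) or Hom library 2 (0.0609), nor with total counts alone (−1.91 ± 0.95, edgeR adjusted p = 0.118), where Lig1 passed instead. In this test of Dnmt1 RIP over input, the median log2 difference was 5.39 for all genes and 6.23 for the 35. Of all genes tested 82.8% lay above 0. Over the fibroblast input, the pooled Dnmt1 RIP level was 3.81 for replication genes (2.12 to 7.65) and 2.18 for mitosis genes (1.45 to 3.45). The pooled m5C level was 5.95 (3.32 to 11.9) and 2.89 (1.92 to 4.57). No pooled ratio of other genes is given, so these ratios do not set the cell cycle genes apart. Birc5 held 13 of the 23 mitosis counts of the input. Without it the mitosis ratios were 4.84 for Dnmt1 RIP (2.63 to 10.1) and 6.19 for m5C (3.36 to 12.9). For G1/S control they were 12.7 (2.27 to 502.3) and 28.5 (5.11 to 1127), from 1 input count. The intervals cover counting error only. Both antibodies share the same few input counts, so the overlap of their intervals cannot compare the antibodies.

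Genotype was compared first within the 6 Dnmt1 RIP libraries, 2 per genotype. None of the 33 genes tested passed in Het against WT, Hom against WT or Hom against Het (edgeR), as 0% of all 13589 genes did in each. DESeq2 also gave 0 of these genes, but called 26 of all genes in Het against WT and 15 in Hom against Het. An unadjusted p under 0.05 was found for 868, 309 and 629 of all genes and for 1, 1 and 0 of the 33, and Gins2, Plk1 and Kif20a were below the count filter. Median log2 differences for Het against WT were 0.08 for replication and 0.37 for mitosis genes, and for Hom against WT 0.08 and 0.27. The Het mitosis median was −0.084 without Het library 2, and both Hom medians fell below 0 with total counts alone (−0.38 and −0.25), where the median of all genes was also −0.38.

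Ccnd1 had 10.4 and 28.9 CPM in the WT pair, 85.2 and 43.5 CPM in the Het pair, and 47.8 and 20.2 CPM in the Hom pair. Both Het libraries lay above both WT libraries, with a difference of 1.71 ± 0.73 and an unadjusted p of 0.0401 (edgeR adjusted p = 0.779). Fibroblast markers moved the same way, being highest in Het at 22099 and 8008 CPM, and their part was not tested. Top2a had 31.1 and 46.3 CPM in the WT pair, 35.1 and 80.4 CPM in the Het pair, and 74.4 and 110.1 CPM in the Hom pair, so that Hom lay above WT (1.22 ± 0.54, unadjusted p of 0.0453, edgeR adjusted p = 1). Mki67 had 31.1 and 37.6 CPM in the WT pair, 46.8 and 79.1 CPM in the Het pair, and 71.8 and 59.7 CPM in the Hom pair, with both mutant pairs above WT (0.94 ± 0.49 and 0.89 ± 0.50, edgeR adjusted p = 0.814 and 1). Rrm2 had 10.4 and 2.89 CPM in the WT pair, 15.04 and 27.7 CPM in the Het pair, and 2.66 and 31.9 CPM in the Hom pair, where the Hom libraries were the lowest and the highest of all 6.

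Some mitosis genes lay lower in the mutant libraries, again without passing the test. Ccnb1 (cyclin B1) had 36.2 and 31.8 CPM in the WT pair, 6.68 and 22.4 CPM in the Het pair, and 18.6 and 10.9 CPM in the Hom pair. Aurkb had 51.8 and 20.3 CPM in the WT pair, 5.01 and 17.1 CPM in the Het pair, and 18.6 and 10.1 CPM in the Hom pair. The WT libraries of both genes lay above all 4 mutant libraries, with Het differences of −1.10 ± 0.79 and −1.49 ± 0.88, and Hom differences of −1.26 ± 0.81 and −1.32 ± 0.88. None of these passed (edgeR adjusted p of 0.849, 0.823, 1 and 1). Tpx2, a spindle assembly factor, had 67.3 and 20.3 CPM in the WT pair, 11.7 and 18.4 CPM in the Het pair, and 39.9 and 22.7 CPM in the Hom pair (−1.32 ± 0.74 for Het, edgeR adjusted p = 0.821). Aurka, its kinase partner, had 46.6 and 17.4 CPM in the WT pair, 18.4 and 29.0 CPM in the Het pair, and 21.3 and 7.56 CPM in the Hom pair, which overlapped (−1.20 ± 0.84 for Hom).

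Counting the 36 genes by overlap, both Het libraries lay above both WT libraries in 4 genes and below in 6, as in 16.5% and 17.2% of all genes. Both Hom libraries lay above both WT libraries in 7 and below in 3, as in 19.6% and 11.3% of all genes. Between mutants, Hom lay above Het in 7 and below in 2, as in 23.7% and 11.1%. The 7 genes with Hom above WT, a number near the share of all genes, were Cdk2, Mki67, Top2a, Plk1, Bub1b, Kif11 and Cdc20. Of these 6 are mitosis genes, as are 18 of the 36. The 3 with Hom below WT were Ccne1 and the mitosis genes Ccnb1 and Aurkb. Between Hom and Het the largest standardised differences were Ccnd1 (−1.14 ± 0.65), Aurka (−0.97 ± 0.78) and E2f1 (−0.77 ± 0.69) below 0, and Tpx2 (0.87 ± 0.71), Top2a (0.60 ± 0.49) and Mcm5 (0.45 ± 0.65) above.

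**Figure D5:**
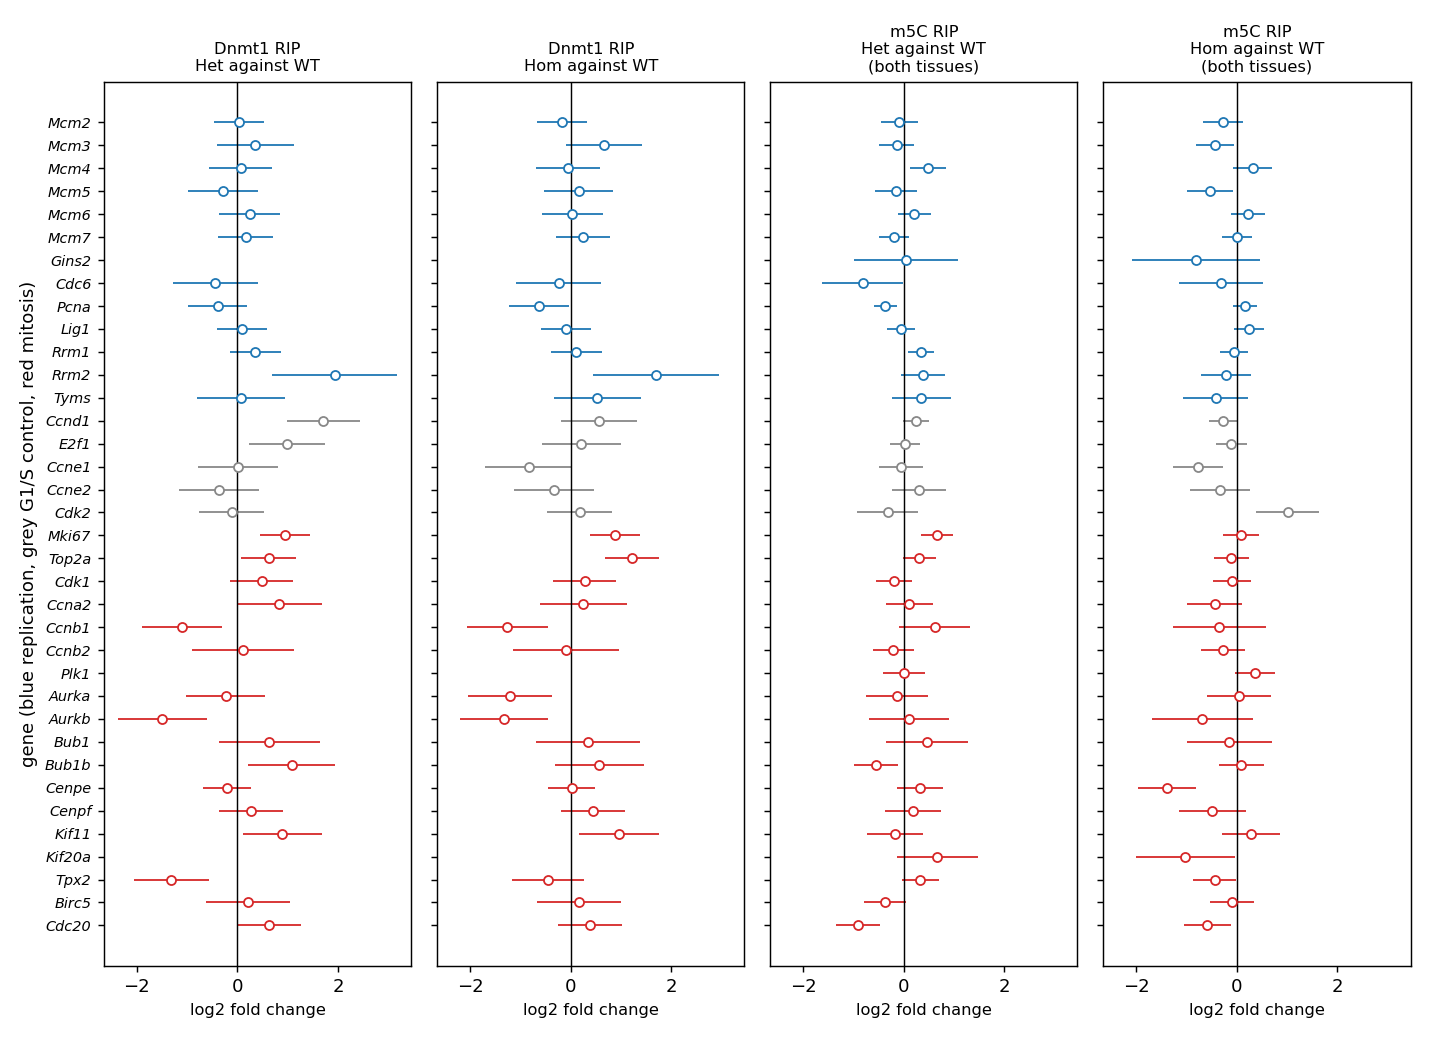
Log2 fold change of each gene (rows, coloured by role) with its standard error for the genotype contrasts within Dnmt1 RIP and within m5C RIP of both tissues (x axes). No point passes an adjusted p of 0.05: Ccnd1 lies at 1.71 for Het within Dnmt1 RIP and Cenpe at −1.38 for Hom within m5C RIP, both with wide bars.

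In fibroblast m5C RIP the spread came from the WT pair alone, and the single Het and Hom libraries were assumed to vary like it. None of the 36 genes passed for Het or Hom (edgeR), where 0.0326% and 0.00815% of all genes did, 406 and 118 of all genes had an unadjusted p under 0.05, and 0 of the 36 did in either contrast. DESeq2 gave 0 as well, and 0 of all genes in either contrast. Medians were 0.24 for replication and 0.13 for mitosis in Het, and −0.00 and −0.40 in Hom. Genotype cannot be told apart here from the table layout, since both WT tables had one layout and both mutant tables the other.

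Cenpe had 18.7 and 34.3 CPM in both WT libraries, 32.7 CPM in Het and 11.7 CPM in Hom, a Hom difference of −1.23 ± 0.65. Ccna2 (cyclin A2) had 23.7 and 55.0 CPM in both WT libraries, 42.4 CPM in Het and 21.9 CPM in Hom (−0.91 ± 0.53), and Ccnb1 had 9.97 and 29.2 CPM in both WT libraries, 33.7 CPM in Het and 8.75 CPM in Hom (−1.24 ± 0.73). In all 3 genes the Hom library lay below both WT libraries, but in no gene of the genome did its counts exceed those of WT library 1. Against WT library 2 alone, the Hom medians were −0.00 for replication and −0.35 for mitosis. Cdc20 stood at 34.9 and 51.5 CPM in the WT libraries against 24.1 CPM in Het (−0.85 ± 0.46), and Tyms, which makes thymidylate, stood at 21.2 and 12.9 CPM against 29.4 CPM (0.84 ± 0.53). In neither gene did the Het library fall between the WT libraries. Among the 36 genes the lowest edgeR adjusted p was 0.9996 in Het and 0.99997 in Hom.

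Across both tissues with tissue as a covariate, 0 of the 36 genes passed for Het or Hom, as 0% of all genes did in each. An unadjusted p under 0.05 was found for 564 and 122 of all genes and for 0 and 1 of the 36, and DESeq2 gave 0 in both. Mki67 stood at 0.67 ± 0.32 in Het (edgeR adjusted p = 0.989), with 7.28 CPM (10 counts) in Het cortex against 1.63 (2 counts) in WT cortex. Cdc20 stood at −0.91 ± 0.44 and Pcna at −0.37 ± 0.23. In Hom, Cenpe was at −1.38 ± 0.57 (edgeR adjusted p = 1), with 3.25, 4.37 and 0.869 CPM in WT, Het and Hom cortex. These are 4, 6 and 2 counts. Cenpe was lowest in Hom in both tissues, but the fibroblast Hom library exceeded WT library 1 in no gene. Ccne1 was at −0.77 ± 0.50 and Plk1 at 0.37 ± 0.40. Medians for replication and mitosis were −0.05 and 0.11 in Het, and −0.21 and −0.20 in Hom. Without the fibroblast WT library 1 and Hom library the mitosis medians changed sign, to −0.074 in Het and 0.15 in Hom.

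Whether a genotype difference depended on the antibody was tested by the interaction within the libraries labelled fibroblast. Antibody and preparation cannot be told apart there either. None of 35 genes passed for Het or Hom (edgeR), as 0% of all 17124 genes did, with an unadjusted p under 0.05 in 573 and 203 of all genes and in 0 and 0 of the 35, and 0 by DESeq2. The largest standardised values for Het were Tpx2 at −1.64 ± 0.88 and Cdc20 at 1.54 ± 0.86. For Hom they were Top2a at 1.41 ± 0.79 and Rrm2 at 2.34 ± 1.37. The value of Rrm2 turned to −0.65 without Dnmt1 RIP Hom library 2, its highest library.

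In cortex there was 1 library per genotype and so no test, and log2 ratios were taken for genes with at least 20 counts in the pair. For Het over WT 8 of the 36 genes had enough counts and 0 lay beyond 2-fold, as did 3.49% of all genes upward and 2.53% downward. Pcna had 39 counts in Het and 55 in WT (−0.63), Ccne1 13 and 19 (−0.63), and Ccne2 16 and 7 (0.87). For Hom over WT 13 genes had enough counts. Above 2-fold was 1, Mcm4 with 23 counts against 4 (1.34), and below were 2, Mcm5 with 7 against 14 (−1.58) and Mcm2 with 8 against 12 (−1.24), where 3.2% and 2.65% of all genes were. These 3 genes encode subunits of the same helicase and moved in opposite directions, while Mcm7, with 43 counts against 21, was at 0.12. For Hom over Het 10 genes had enough counts and 1, the checkpoint kinase gene Bub1b with 17 against 3, lay above 2-fold (1.37), as 2.59% of all genes did, with 0 below, against 2.3%.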

How the data were processed

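RNA immunoprecipitation libraries of mouse tail fibroblasts and cortex were analysed from the gene counts that the authors deposited, 1 table per library (unit: counts, not normalized). Per the submitters' processing notes, the tools were Trim Galore 0.4.1, HISAT2 and featureCounts, and the build was mm10. No source used here gives the strand setting or the gene annotation, so a gene and its antisense partner cannot be told apart. Library preparation names both rRNA depletion and poly(A) enrichment, per the labels' protocols. Of the tables, 6 also held 5 entries for reads in no gene, which were left out of totals and tests. In those libraries 3.79% to 10.1% of reads were in genes.

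Genes were filtered with filterByExpr (10 counts, 15 in total) and tested with edgeR 4.0.16 quasi-likelihood fits after TMM scaling, with Benjamini-Hochberg adjustment over all genes tested and a threshold of 0.05. The standard error is the log2 fold change divided by the root of F. DESeq2 1.42.0 (R 4.3.3), other scalings, no filter, left-out libraries and the replicate block were alternatives. Levels are CPM without Lars2, Gm42418, Gm26917 and Gm10800. Exon lengths came from GENCODE M21 (mm10) and promoters from RefSeq. For cortex genotypes, log2 ratios had a prior count of 2. Intervals are exact binomial (SciPy 1.17.1, 95%). The fits were tested on simulated data.

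The members, lists and settings were chosen with earlier results of these data known. Any of the 36 genes may be named, those with the smallest p in each direction (up to 6) in full, and up to 4 genes per direction of each wider list. The fibroblast input held 95107 counts outside the 4 transcripts, which limits every comparison with it.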

Additional observations from a re-analysis of the deposited data

Results flagged for a closer look

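For 6 pairs of comparisons, every library of one group lay to one side of WT and every library of the other group to the opposite side, in the mean log2(CPM + 1) of a role group. None of these differences was tested, each rests on 1 or 2 libraries per genotype, and the interaction tests by gene in fibroblasts called 0 of 35 genes.

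Replication genes in Het minus WT were at 0.16 in fibroblast m5C RIP and −0.31 in cortex m5C RIP, which differ by 0.46. In Hom minus WT they were at 0.28 in Dnmt1 RIP, −0.11 in fibroblast m5C RIP and −0.25 in cortex m5C RIP, so that Dnmt1 RIP differed from the m5C tissues by 0.39 and 0.54. Mitosis genes in Hom minus WT were at 0.25 in Dnmt1 RIP and −0.35 in fibroblast m5C RIP, a difference of 0.60, and at 0.14 in cortex m5C RIP, from which fibroblast m5C RIP differed by −0.49. G1/S control genes in Hom minus WT were at −0.16 in fibroblast and 0.16 in cortex m5C RIP, a difference of −0.33. Other measures of cortex ran otherwise. The summed G1/S level was lower in the Hom library (49.98 CPM) than in WT (65.0 CPM), 1 of the 4 genes with enough counts had a Hom over WT log2 ratio above 0 (median −0.51), and Cdk2 went from 0 counts in WT to 9 in Hom. The replication genes with enough counts had a median ratio of 0.12. The fibroblast m5C Hom library, whose counts never exceeded those of WT library 1, enters 4 of the 6.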

How the results depend on the processing

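The tissue difference held for 32 to 34 of the 36 genes in 15 settings, while the antibody count and the genotype medians moved with the setting. The cause was not tested except where stated. With total counts alone, medians for replication and mitosis were −0.38 and −0.25 for Dnmt1 RIP Hom against WT (0.08 and 0.27), and −0.40 and −0.48 for Hom against Het (−0.15 and −0.11). Under the same setting the replication median was 0.33 for fibroblast m5C Het (0.24), 0.093 for Hom (−0.00) and −0.75 between antibodies (−1.05), where 8 genes in place of 20 passed, and Mcm5 over input was 0.043 (−0.30). With no filter, the Het replication median was 0.31 and Cdc6 between antibodies −0.0051 (0.10). DESeq2 gave a tissue mitosis median of 4.54 (4.36), 12 genes between antibodies, 1 in m5C RIP over input (0) and 0 in Dnmt1 RIP over input (1). A prior count of 5 left 1 gene (2) more than 2-fold lower in Hom cortex.

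Chosen after seeing the data, the fits without fibroblast m5C WT library 1 and Hom library gave mitosis medians over both tissues of −0.074 in Het (0.11) and 0.15 in Hom (−0.20). Between antibodies, the contrast over WT and Het alone gave 14 genes (20), with Cenpf at −0.13 and Kif20a at −0.27, and leaving out the same pair as well gave 13, with Cenpe at −0.18, Cenpf at −0.38 and Kif20a at −0.66. Within 1 table layout, tissue medians were 3.62 and 4.12, and 8 genes passed between antibodies.

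Leaving out 1 library at a time gave these ranges. In Dnmt1 RIP the Het against WT mitosis median ran from −0.084 to 0.70, Rrm2 in Hom against WT from −1.10 to 2.63, and in Hom against Het the replication median from −0.23 to 0.20, the mitosis median from −0.39 to 0.43 and Mcm5 from −0.11 to 1.20. In fibroblast m5C Het, replication ran from 0.041 to 0.23, mitosis from −0.030 to 0.30 and Cdk2 from −0.86 to 0.44. In Hom they ran from −0.13 to 0.083, −0.44 to −0.13 and −0.042 to 1.26. For tissue, replication ran from 2.53 to 3.60, mitosis from 3.94 to 4.37 and Kif20a from −0.25 to 0.53. Over both tissues, mitosis ran from −1.07 to 0.37 in Het and −0.43 to 0.27 in Hom. Between antibodies, the replication median ran from −1.20 to −0.82, Ccne2 from −0.085 to 0.61 and Cdc6 from −0.074 to 0.31. In the Hom interaction Rrm2 ran from −0.65 to 3.26 and Aurka from −1.22 to 0.14. Genes called ran from 0 to 18 in m5C RIP over input (18 without the cortex input) and from 0 to 1 in Dnmt1 RIP over input.

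With the replicate number as a block, 0 genes passed in the Dnmt1 RIP genotype contrasts, 19 between antibodies and 1 in Dnmt1 RIP over input, so no count of the 36 genes moved by over 1.5 times. Same-numbered Dnmt1 RIP libraries deviated with correlations of −0.01, 0.20 and 0.06, so the numbers were not taken as pairs.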
